A study of Mus musculus with 86 samples.

Results

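Heterozygous mouse testes at postnatal day 14 (P14) were compared with heterozygous testes at P10, using 2 poly(A) RNA libraries at P14 and 3 at P10. These 5 samples were chosen by their age and genotype labels out of 86 in the series, and every row of the gene count table was used. The series was made to study BTBD18, a nuclear protein named for its BTB domain, in the production of piRNAs, the small RNAs that bind PIWI proteins. All animals are labelled as hybrids of C57BL/6 and 129/SvJ. The P14 and P10 heterozygotes carry 1 knockout copy of Btbd18 and served as the series' controls, so no wild type animals enter the comparison. Homozygous knockout testes at P14 (2 libraries) and P10 (3 libraries) were used to ask whether the change with age differed between genotypes. Heterozygous testes at P18 (3 libraries) and P28 (2 libraries) were used for later levels, and small RNA of heterozygous testes at P14 (2 libraries) and P10 (2 libraries) for the mature products of piRNA loci. Each library is whole testis. Nothing in the labels ties a library to an animal of its own. The p-values therefore cover the spread among these libraries, which may be technical.

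In the mouse the germ cells of the first wave of spermatogenesis advance together. Around P10 the most advanced cells are spermatogonia entering meiosis and early spermatocytes, and around P14 they reach the pachytene stage, in which homologous chromosomes are fully paired by the synaptonemal complex and the X and Y chromosomes are silenced in the sex body. Sertoli cells, which nurse the germ cells, stop dividing and mature in the same period. A whole-testis level depends on how many cells express a gene and on how much each cell expresses, and these cannot be told apart here.

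Libraries held 10.7 and 10.1 M counts (M, mega) at P14 and 6.58 to 7.25 M counts at P10. Levels are given in CPM, counts scaled by each library's total and composition. They compare a gene between libraries and not 1 gene with another, since gene length is not divided out. After a filter on low counts 16334 of 24276 features were tested, and 2099 features had no count in any of the 20 testis libraries. Defining markers of the tissue were present at both ages: Sycp3 of spermatocytes at 410 and 349 CPM at P14 against 57.0, 58.6 and 54.1 CPM at P10, and Clu of Sertoli cells at 2985 and 3065 CPM at P14 against 3684, 3824 and 4013 CPM at P10. Protamine and transition protein genes of elongating spermatids, Prm1, Prm2, Tnp1 and Tnp2, stayed at or below 0.270 CPM in all 5 libraries. The second P10 library stood apart. It was the lowest of the 3 P10 libraries in 60 of 81 tested meiotic genes and the highest in 17 of 23 tested genes of immature Sertoli cells, so counts without it are given where they differ by more than 1.5 times.

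Of the 16334 features 4675 rose (28.6%) and 4146 fell (25.4%) by P14, at an adjusted p below 0.05 in edgeR's quasi-likelihood test, and the median log2 fold change was 0.01. As 54.0% of features passed in either direction, a second rule tested each change against a 2-fold change. By it 1009 features rose (6.18%) and 429 fell (2.63%), 8.80% in all. Counts given as more than 2-fold or past 2-fold are passes of this test. It is stricter than a cut on size: 1732 risen and 1389 fallen features had a fitted change of 2-fold or more. Without the second P10 library 4413 rose and 3571 fell, with 941 and 284 past 2-fold. Leaving out either P14 library lowered the falls past 2-fold to 277 and 274. The sizes were unequal between directions: a fitted change of 10-fold or more was found in 472 features upward and 37 downward. Among the 1009 that rose by more than 2-fold the median level was 1.53 CPM at P10, 17.2 CPM at P14, 78.3 CPM at P18 and 115 CPM at P28, and 907 had a higher mean at P18 than at P14. Among the 429 that fell by more than 2-fold the median was 29.1 CPM at P10, 8.25 CPM at P14, 7.38 CPM at P18 and 5.73 CPM at P28. Not all fell further: 252 had a lower mean at P18 than at P14 and 176 a higher one.

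The clearest rises were chosen by the test against a 2-fold change. Rsph1 (chromosome 17, 31255019 to 31277296), which encodes a radial spoke head protein of the sperm tail axoneme, had 280.5 and 218 CPM at P14 against 6.22, 5.54 and 5.94 CPM at P10. Its log2 fold change was 5.40 ± 0.17 (standard error; adjusted p = 1.88e-14). Ldhc (chromosome 7, 46861263 to 46878147), the lactate dehydrogenase of germ cells, had 266 and 199 CPM at P14 against 0.135, 0.129 and 0.495 CPM at P10 (9.74 ± 0.42, adjusted p = 7.59e-13). Both genes were absent or low in every P10 library and high in both P14 libraries. The 2 ages did not overlap. The same held for all 1009 features that rose by more than 2-fold, against 36.8% of all tested features with P14 above P10. Those 1009 were chosen on these same libraries, so the lack of overlap adds no support. Kctd19, a partner of the meiotic regulator ZFP541, had 190 and 153 CPM at P14 against 0.270, 0.386 and 0.867 CPM at P10 (8.34 ± 0.29, adjusted p = 7.54e-14). Cntd1, a cyclin-like protein of crossover maturation, had 168 and 133 CPM at P14 against 3.78, 3.22 and 2.60 CPM at P10 (5.55 ± 0.22, adjusted p = 4.28e-13). Hspa2, a chaperone of spermatocytes, had 591 and 470.5 CPM at P14 against 57.4, 57.5 and 60.9 CPM at P10 (3.18 ± 0.12, adjusted p = 2.11e-13). Mtl5 (tesmin), Cers3 (ceramide synthase 3), Gml, Fabp9 (a fatty acid binding protein) and Piwil1 complete the 10 genes, with log2 fold changes of 5.49, 7.77, 6.44, 8.39 and 4.85.

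The clearest falls were chosen by the same test. Hspg2 (chromosome 4, 137468751 to 137570630), which encodes the basement membrane proteoglycan perlecan, had 116 and 98.0 CPM at P14 against 664, 610.0 and 538 CPM at P10 (-2.50 ± 0.17, adjusted p = 4.36e-10). Hmcn1, the matrix protein hemicentin 1, had 8.13 and 6.77 CPM at P14 against 47.4, 46.6 and 41.2 CPM at P10 (-2.59 ± 0.15, adjusted p = 3.57e-11). Dst, the cytoskeletal linker dystonin, had 84.4 and 73.6 CPM at P14 against 461.5, 558 and 416 CPM at P10 (-2.60 ± 0.15, adjusted p = 3.06e-11). Each fell in both P14 libraries below all P10 libraries. Of the 429 features that fell by more than 2-fold 428 showed no overlap, against 33.9% of all tested features with P14 below P10. These too were chosen on the same libraries. Meg3, an imprinted noncoding RNA, had 10.3 and 9.66 CPM at P14 against 66.2, 98.2 and 71.6 CPM at P10 (-2.98 ± 0.21, adjusted p = 5.80e-10). Jun, a subunit of the transcription factor AP-1, had 30.6 and 32.1 CPM at P14 against 109, 106 and 105 CPM at P10 (-1.76 ± 0.09, adjusted p = 6.69e-12). The other 5 were Celsr1 (a cadherin of planar polarity), AI848285, Fbn2 (fibrillin 2), Kcnt1 (a potassium channel) and Tnrc18, with log2 fold changes of -2.95, -2.54, -2.01, -3.17 and -2.12. The genomic span of genes was longer among falls: the median was 36.2 kb for genes that fell by more than 2-fold, 24.5 kb for those that rose by more than 2-fold and 22.6 kb for all tested genes. Whether span plays a part in the falls was not tested.

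**Figure D1:**
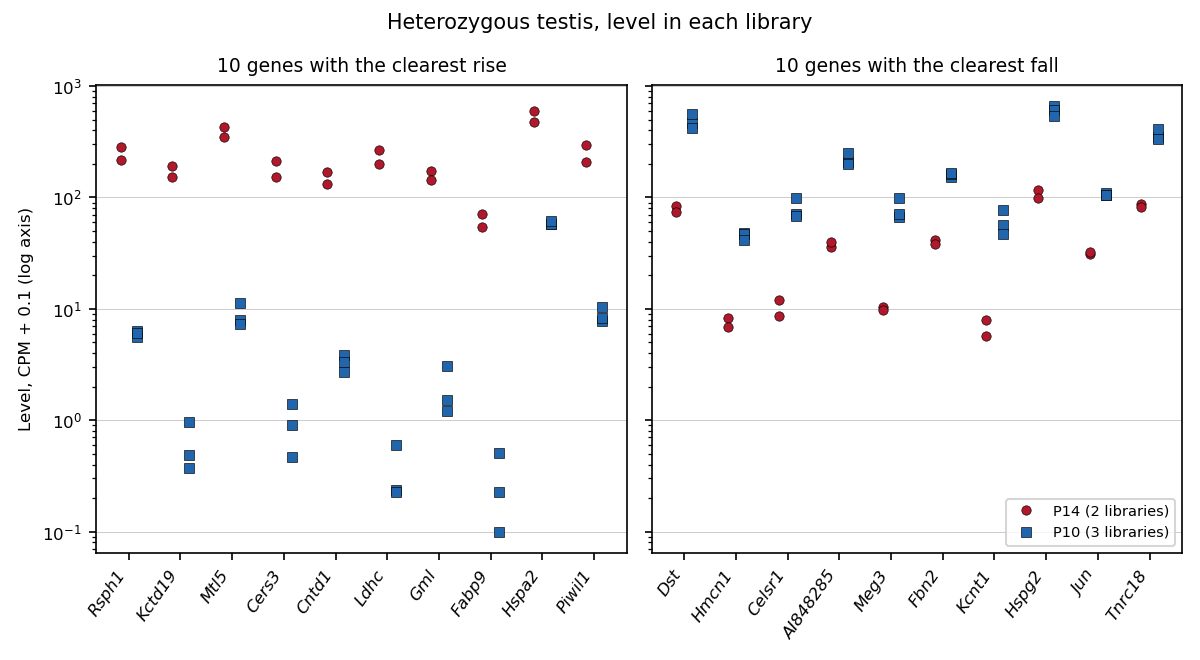
Level of each of the 20 genes with the clearest change in each library (CPM + 0.1, log axis), with P14 libraries as circles and P10 libraries as squares. The rises on the left start at or below 11.1 CPM at P10, apart from Hspa2 at 57.4 to 60.9 CPM, and the falls on the right show no overlap of the 2 ages.

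Genes of undifferentiated spermatogonia, the stem and progenitor cells, were mostly lower at P14: of 21 tested, 15 fell and 1 rose, with a median log2 fold change of -1.07. Zbtb16 (PLZF) had 46.8 and 47.4 CPM at P14 against 116, 115 and 114 CPM at P10 (-1.28 ± 0.16, adjusted p = 8.68e-07). Gfra1, the receptor for the Sertoli cell signal GDNF, had 15.9 and 15.5 CPM at P14 against 45.5, 42.1 and 30.7 CPM at P10 (-1.33 ± 0.17, adjusted p = 2.38e-06), and its co-receptor Ret fell alike (-1.20 ± 0.16, adjusted p = 2.32e-06). Sall4 fell by 1.07 and Egr4 by 1.69 on the log2 scale. Id4, an inhibitor of DNA binding that marks stem cells, went the other way, with 35.6 and 30.9 CPM at P14 against 9.87, 11.6 and 7.80 CPM at P10 (1.77 ± 0.19, adjusted p = 1.84e-07). Id4 is also expressed by other cells of the testis, and which cells carry the rise was not tested. Etv5 did not pass (0.16 ± 0.19, adjusted p = 0.491).

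Genes of differentiating spermatogonia split, with 3 of 14 tested risen (21.4%) and 6 fallen (42.9%), against 28.6% and 25.4% of all tested features. Kit, the receptor that marks their onset, had 131 and 130.2 CPM at P14 against 176, 151 and 189 CPM at P10 (-0.40 ± 0.14, adjusted p = 0.0242). That call is lost without either P14 library, the first P10 library or the third P10 library, with an adjusted p of 0.0746 to 0.118. Dmrt1, which holds spermatogonia in mitosis, fell by 0.63, and Sohlh1, a spermatogonial transcription factor, by 0.75 on the log2 scale. Cyclin genes moved apart: Ccnd2 fell (-1.35 ± 0.13, adjusted p = 3.64e-08) and Ccnb2 rose (1.10 ± 0.14, adjusted p = 1.37e-06). Among 28 tested genes of mitosis and DNA replication 13 rose (46.4%) and 8 fell (28.6%), with a median of 0.09. Mki67, a proliferation antigen, fell (-0.60 ± 0.08, adjusted p = 5.08e-06) as did Mcm2 of the replicative helicase, while Pcna, Top2a and the CDK inhibitor Cdkn2c rose by 0.98, 0.76 and 1.62.

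Retinoic acid starts both spermatogonial differentiation and meiosis. Of 18 tested genes of its metabolism and signalling 5 rose (27.8%) and 4 fell (22.2%), near the 28.6% and 25.4% of all tested features. The median was -0.05, and 3 rose without the first P14 library. Storage and synthesis genes were among the rises: Lrat, which esterifies retinol, had 9.76 and 6.33 CPM at P14 against 2.03, 1.67 and 1.49 CPM at P10 (2.22 ± 0.23, adjusted p = 1.45e-07), and the retinol dehydrogenase gene Rdh11 rose by 2.01. The degrading enzyme gene Cyp26a1 rose (1.36 ± 0.29, adjusted p = 4.29e-04) whereas Cyp26b1 did not pass (-0.14 ± 0.16, adjusted p = 0.483). Rara, the receptor, fell (-0.86 ± 0.11, adjusted p = 1.61e-06). Stra8, the retinoic acid target that licenses meiosis, had 139 and 145 CPM at P14 against 145, 82.4 and 139.5 CPM at P10, with overlap, and did not pass (0.22 ± 0.16, adjusted p = 0.282). Its low P10 value belongs to the second P10 library.

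Of 13 tested regulators of meiotic entry and of meiotic prophase 10 rose, 8 of them by more than 2-fold, and none fell (median 1.31). With RLE scaling, with DESeq2 or with the compared libraries alone 1 fell. Meioc, listed as Gm1564, had 408 and 365 CPM at P14 against 131, 77.6 and 108 CPM at P10 (1.87 ± 0.18, adjusted p = 3.04e-08). Its partner in extending prophase, Ythdc2, rose by 1.31, and the RNA-binding protein gene Dazl by 1.24 and had 1158 and 1093 CPM at P14 against 481, 467 and 482 CPM at P10. Zfp541, a chromatin regulator of pachytene, had 118 and 110.1 CPM at P14 against 21.1, 10.7 and 18.1 CPM at P10 (2.78 ± 0.16, adjusted p = 5.84e-11).

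Double-strand break formation opens recombination, and 8 of its 13 tested genes rose and 1 fell (median 0.62). Spo11, the enzyme that cuts the DNA, had 27.2 and 32.2 CPM at P14 against 2.84, 1.67 and 1.49 CPM at P10 (3.90 ± 0.29, adjusted p = 1.31e-09). Hormad1 and Hormad2, which bind unpaired chromosome axes, rose by 2.59 and 2.89. Prdm9, which marks hotspots, had 29.4 and 30.8 CPM at P14 against 15.5, 9.65 and 11.9 CPM at P10 (1.29 ± 0.19, adjusted p = 8.03e-06). It did not pass the test against a 2-fold change. Mei4 did not pass, with 7.11 and 7.73 CPM at P14 against 7.84, 4.12 and 6.81 CPM at P10. Its partner Rec114, listed as 2410076I21Rik, passed narrowly (0.51 ± 0.21, adjusted p = 0.0492), and its adjusted p lay between 0.0651 and 0.185 without the first or second P10 library or either P14 library. The fall was in Cxxc1, and no gene fell when the second P10 library, the third P10 library or either P14 library was left out.

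Strand invasion and repair genes rose in 15 of 19 tested, 9 by more than 2-fold, and 1 fell (median 1.23). Meiob, which holds single-stranded DNA together with SPATA22, had 93.1 and 95.8 CPM at P14 against 3.38, 1.03 and 3.59 CPM at P10 (5.14 ± 0.37, adjusted p = 7.42e-10). Spata22 itself rose by 3.33 and Rad51ap2 by 4.31. The meiotic recombinase gene Dmc1 rose (1.86 ± 0.18, adjusted p = 3.04e-08). Brca2, which loads recombinases onto DNA, rose little (0.38 ± 0.10, adjusted p = 0.00324), and not past the threshold without the first P14 library (0.26, adjusted p = 0.0994). The break-sensing kinase gene Atm fell, with 134 and 124 CPM at P14 against 203, 165 and 208 CPM at P10 (-0.58 ± 0.11, adjusted p = 1.66e-04). Without the second P10 library 14 rose and 2 fell, the added one being Brca1 (-0.29, adjusted p = 0.0160; with all libraries -0.20, adjusted p = 0.0824).

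Synaptonemal complex and meiotic cohesin genes rose in 13 of 15 tested, 9 by more than 2-fold, and none fell (median 1.45). Sycp1, the transverse filament, had 588 and 532 CPM at P14 against 128, 167 and 114 CPM at P10 (2.04 ± 0.19, adjusted p = 2.80e-08). Sycp2 of the axis rose by 2.32 and Sycp3 by 2.75. The cohesin subunit gene Smc1b had 405 and 383 CPM at P14 against 148, 128 and 158 CPM at P10 (1.45 ± 0.09, adjusted p = 2.18e-10). Rec8, the meiotic kleisin loaded before prophase, had 32.5 and 46.1 CPM at P14 against 54.2, 31.0 and 41.6 CPM at P10 and did not pass (-0.10 ± 0.26, adjusted p = 0.767).

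Crossover genes rose in 9 of 12 tested and fell in none (median 0.66). Msh4, a subunit of the clamp that stabilises joined strands, had 50.9 and 46.6 CPM at P14 against 4.87, 3.09 and 4.33 CPM at P10 (3.57 ± 0.21, adjusted p = 7.13e-11), its partner Msh5 rose by 1.93, and the helicase gene Hfm1 by 3.27. Mlh3, which acts in resolving crossovers, rose (0.75 ± 0.17, adjusted p = 0.00111). Telomere attachment genes rose in 7 of 10 tested and 1 fell (median 1.41). Spdya, which activates CDK2 at telomeres, had 65.8 and 59.2 CPM at P14 against 6.35, 2.83 and 4.08 CPM at P10 (3.83 ± 0.31, adjusted p = 3.99e-09). Terb1, listed as Ccdc79, Terb2, listed as 4933406J08Rik, and Majin, listed as 1700123I01Rik, which together tie telomeres to the nuclear envelope, rose by 2.42, 2.24 and 2.83. Kash5, listed as Ccdc155, which links them to the motor dynein, rose by 3.08. The broadly expressed envelope gene Sun1 rose by 0.52, and the lamin gene Lmnb1 fell by 0.26 (adjusted p = 0.0168), a fall lost without the second P10 or the second P14 library (adjusted p = 0.103 and 0.176).

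Across these 6 meiotic lists, 61 of 81 tested genes rose. In 64 of the 81 both P14 libraries lay above the 3 P10 libraries, against 36.8% of all tested features.

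**Figure D2:**
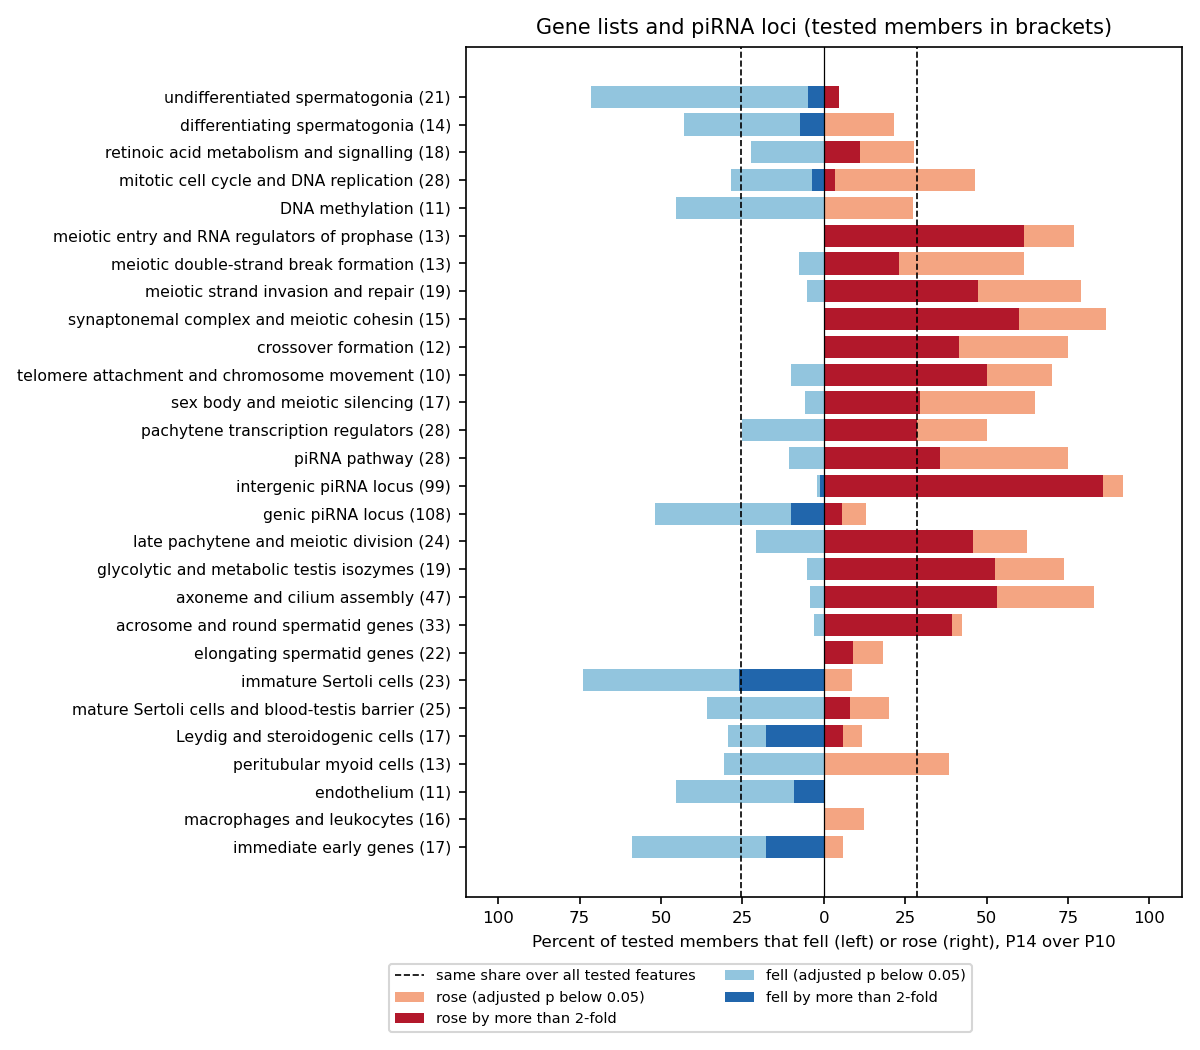
Percent of tested members of each gene list and of both kinds of piRNA locus that fell (left) or rose (right) at P14 over P10. The darker shade marks passes of the test against a 2-fold change. Dashed lines mark the shares risen and fallen over all tested features. Meiotic, axonemal and intergenic piRNA rows extend far to the right (61.5% to 91.9% risen), and undifferentiated spermatogonia and immature Sertoli cells to the left (71.4% and 73.9% fallen).

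Genes that act in the sex body rose in 11 of 17 tested and 1 fell (median 0.51), with 2 falls without the second P10 library and none without the first P14 library. H2afx, the histone variant whose phosphorylation marks silenced chromatin, had 167 and 134 CPM at P14 against 48.5, 57.5 and 52.9 CPM at P10 (1.51 ± 0.10, adjusted p = 4.04e-10). Mdc1, which spreads that mark, also rose by 1.51, and the kinase gene Atr by 1.57. RNA from the X chromosome itself made up a smaller share at P14. Its genes took 3.02% and 3.14% of counts at P14 against 3.51%, 3.50% and 3.59% at P10, and the share was 1.686% to 2.102% at P18 and 1.32% to 1.37% at P28. The libraries of P14 lie below those of P10, but 2 against 3 libraries cannot give a one-sided exact permutation p below 0.1, and no test is reported. Gene by gene, 116 of 655 tested X-linked genes rose (17.7%) and 175 fell (26.7%), against 28.8% and 25.3% of 15380 autosomal genes. Past 2-fold, 22 X-linked genes rose (3.36%) and 6 fell (0.916%), against 5.79% and 2.66% of autosomal genes. The X-linked median was -0.03. The X-linked gene Tsx rose by 4.69. Nr0b1, also X-linked, rose by 0.31, though not without the second P10 or the second P14 library (adjusted p = 0.0868 and 0.221).

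**Figure D3:**
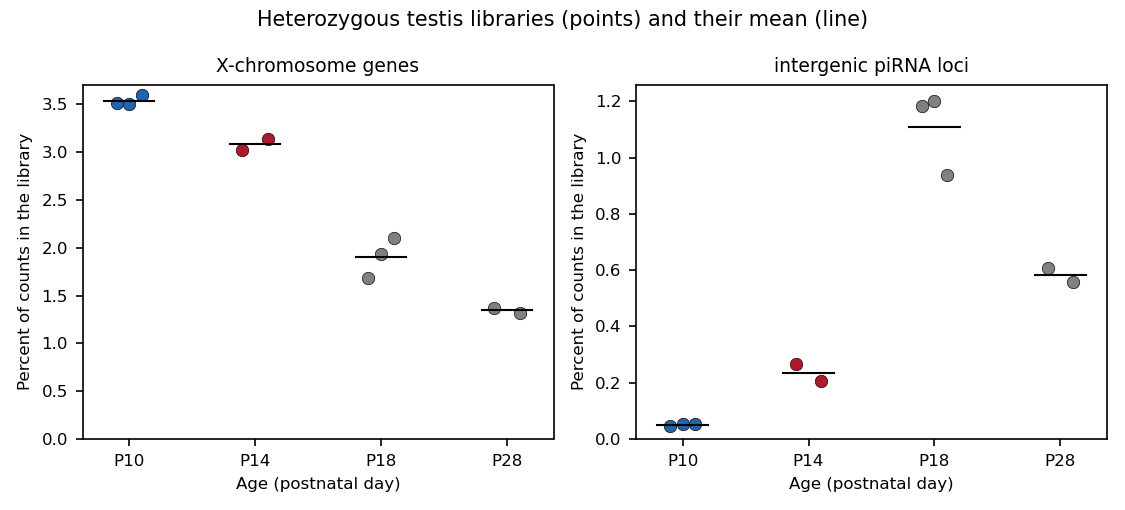
Percent of each heterozygous library's counts on X-chromosome genes (left) and on intergenic piRNA loci (right) by age, 1 point per library and a line at the mean. The X share lies at 3.50% to 3.59% at P10 and at 3.02% and 3.14% at P14, and the share of intergenic loci at 0.0469% to 0.0529% at P10 and 0.265% and 0.208% at P14, with a further rise at P18.

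Transcription regulators of pachytene were mixed: 14 of 28 tested rose (50%), 8 by more than 2-fold, and 7 fell (25%), with a median of 0.40. Over all tested features 28.6% rose and 25.4% fell. Mybl1, the MYB factor that drives pachytene piRNA loci and meiotic genes, had 119 and 111 CPM at P14 against 27.2, 23.2 and 28.4 CPM at P10 (2.13 ± 0.18, adjusted p = 9.22e-09). Btbd18 had 18.4 and 18.2 CPM at P14 against 14.6, 12.9 and 14.0 CPM at P10 (0.40 ± 0.16, adjusted p = 0.0359). Its groups do not overlap, yet the call is lost with DESeq2 (adjusted p = 0.0834), with the replicate number as a block (adjusted p = 0.0676) and without any library other than the first P10 library (0.0576 to 0.132). Sox30, which activates late meiotic and spermatid genes, rose by 3.39, the bromodomain gene Brdt by 3.00, and Rfx2, a factor of cilium and spermatid genes, by 2.43. Its broadly expressed relative Rfx1 fell, with 30.9 and 28.4 CPM at P14 against 62.3, 58.3 and 54.5 CPM at P10 (-0.98 ± 0.11, adjusted p = 4.10e-07).

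Promoters were searched for the letters of known motifs in the 250 bases before each gene's start, in RefSeq's GRCm38.p6 tables, for 10252 tested genes with 1 promoter each. TAACNG, the core of the MYB motif, was found on either strand in 24.4% of 602 genes that rose by more than 2-fold, 12.9% of 232 that fell by more than 2-fold and 17.2% of all. The E2F letters GCGGGAA were found in 8.47%, 5.17% and 6.58% of the same sets, the E-box CACGTG in 10.5%, 6.90% and 8.02%, the letters CNCCTCAG linked to STRA8 in 7.81%, 8.62% and 7.19%, and the CRE TGACGTCA in 2.33%, 2.16% and 2.53%. Promoters of rises past 2-fold were also poorer in G and C, with a median of 56.4% against 62.4% in falls and 59.2% in all, and whether base composition sets the motif shares was not tested. Among the 10 clearest rises, 4 had a single promoter in the table, and the MYB letters stood in those of Piwil1 and Hspa2. The upstream 250 bases of both are shown on their plus strand, with the MYB letters, on either strand, in capitals. In Piwil1 they begin 139 and 64 bases before the start used in the promoter table, and in Hspa2 175 bases before it. The annotated spans begin earlier, at base 128736071 for Piwil1 and 76403812 for Hspa2, so the MYB letters stand inside them. No motif searched overlaps them.
Piwil1 (chr5:128735996-128736245): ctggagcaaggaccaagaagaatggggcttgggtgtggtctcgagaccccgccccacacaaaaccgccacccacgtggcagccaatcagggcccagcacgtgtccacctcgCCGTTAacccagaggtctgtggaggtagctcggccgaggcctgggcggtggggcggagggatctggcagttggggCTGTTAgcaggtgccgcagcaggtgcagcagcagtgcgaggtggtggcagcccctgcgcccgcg
Hspa2 (chr12:76404120-76404369): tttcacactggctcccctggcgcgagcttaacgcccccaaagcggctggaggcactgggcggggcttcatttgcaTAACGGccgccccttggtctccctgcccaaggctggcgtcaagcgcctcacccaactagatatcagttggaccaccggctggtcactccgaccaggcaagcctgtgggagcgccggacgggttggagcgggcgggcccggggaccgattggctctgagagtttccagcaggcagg

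The piRNA pathway rose broadly: 21 of 28 tested genes rose, 10 by more than 2-fold, and 3 fell (median 1.17), with 1 fall without the second P14 library. Piwil1 (MIWI), the PIWI protein of pachytene piRNAs, had 295 and 207 CPM at P14 against 10.3, 7.72 and 8.17 CPM at P10 (4.85 ± 0.21, adjusted p = 7.59e-13). Piwil2 (MILI), which is made from fetal life on, had 692 and 592 CPM at P14 against 319, 269 and 313 CPM at P10 (1.10 ± 0.14, adjusted p = 1.40e-06). Piwil4 (MIWI2), the fetal PIWI protein, fell by 0.78, though not without the second P14 library (adjusted p = 0.0950). Mov10l1, the helicase that feeds precursors into processing, had 539 and 473 CPM at P14 against 186, 162 and 189.9 CPM at P10 (1.50 ± 0.10, adjusted p = 1.70e-10). Ybx2, an RNA-binding protein of stored messages, rose by 4.10, and the granule proteins Mael and Tdrd1 by 1.46 and 1.18. Morc1, a silencer of transposons in the fetal germ line, fell (-0.64 ± 0.13, adjusted p = 4.48e-04).

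RNA counted at piRNA loci moved mostly in opposite directions by kind. At genic loci these counts cannot be told apart from those of the gene, as set out below. The table holds 100 intergenic loci, named by chromosome, band and number, and 114 genic loci, named after a gene. Of 99 tested intergenic loci 91 rose, 85 by more than 2-fold, and 2 fell (median 5.88, or 4.85 with the loci that had no P10 count set to their lower bound). All 91 had a higher mean at P18 than at P14, and their median level was 11.1 CPM at P14 against 0.0842 CPM at P10. For 28 of them no count was seen at P10, so the fold is a lower bound set by 3 counts over the P10 group, from at least 2.02-fold to at least 580-fold. The locus 17-qA3.3-26735 had 351 and 310 CPM at P14 against 0.270, 0.129 and 0.124 CPM at P10 (10.79 ± 0.34, adjusted p = 1.88e-14), and 658 CPM at P18. The locus 7-qB5-6255 had 105 and 80.2 CPM at P14 against 3 counts in all at P10, a ratio of 718 (95% counting interval 245 to 3483). The loci 7-qF3-3125 and 11-qE1-3997 had 1 count in all at P10, with ratios of 694.5 (124 to 27470) and 443.5 (79.2 to 17560). At 13-qB1-1517 P10 levels were well above the limit of counting, with 91.1 and 72.8 CPM at P14 against 0.946, 1.29 and 2.35 CPM at P10 (5.71 ± 0.29, adjusted p = 8.83e-12).

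Of the intergenic loci 2 fell. The locus 7-qD2-40 had 119 and 115 CPM at P14 against 205, 244 and 226 CPM at P10 (-0.94 ± 0.08, adjusted p = 1.38e-08). The locus 2-qE5-4 had 47.4 and 51.9 CPM at P14 against 122, 144 and 144 CPM at P10 (-1.46 ± 0.14, adjusted p = 3.93e-08). The other 6 tested intergenic loci did not pass, among them 5-qG2-950, with 1.798 and 0.703 CPM at P14 against 1.49, 1.03 and 2.48 CPM at P10, and 13-qA5-156 (0.43 ± 0.20, adjusted p = 0.0685), which passed without the first P10 library (adjusted p = 0.0382).

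Genic loci were lower at P14 more often than higher: 56 of 108 tested fell, 11 by more than 2-fold, and 14 rose, 6 by more than 2-fold (median -0.65). The falls ran from -2.40 to -0.32 on the log2 scale. pi-Igsf9b had 14.5 and 16.5 CPM at P14 against 41.2, 43.1 and 45.3 CPM at P10 (-1.48 ± 0.14, adjusted p = 4.90e-08), and pi-Shank3 and pi-Ssh1 fell by 1.84 and 0.88. pi-Foxo3 (-0.61) and pi-Rab11fip4 (-0.56) fell too. pi-Klhl11 had 240.2 and 249.6 CPM at P14 against 246.5, 290.4 and 269 CPM at P10 and did not pass (-0.13 ± 0.10, adjusted p = 0.279). Among the genic rises, pi-1700006A11Rik had 25.9 and 16.2 CPM at P14 and no count at P10 (at least 164-fold higher), pi-1700016M24Rik was at least 89.7-fold higher, and pi-Mlc1 rose by 2.43. pi-Zfp382 and pi-Tbl2 rose by 1.55 and 1.14. Of the 114 genic loci 107 have a row for the gene they are named after, and 77 of these gene rows are at 0 in all 20 libraries, so the reads of a genic locus and of its gene cannot be told apart.

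**Figure D4:**
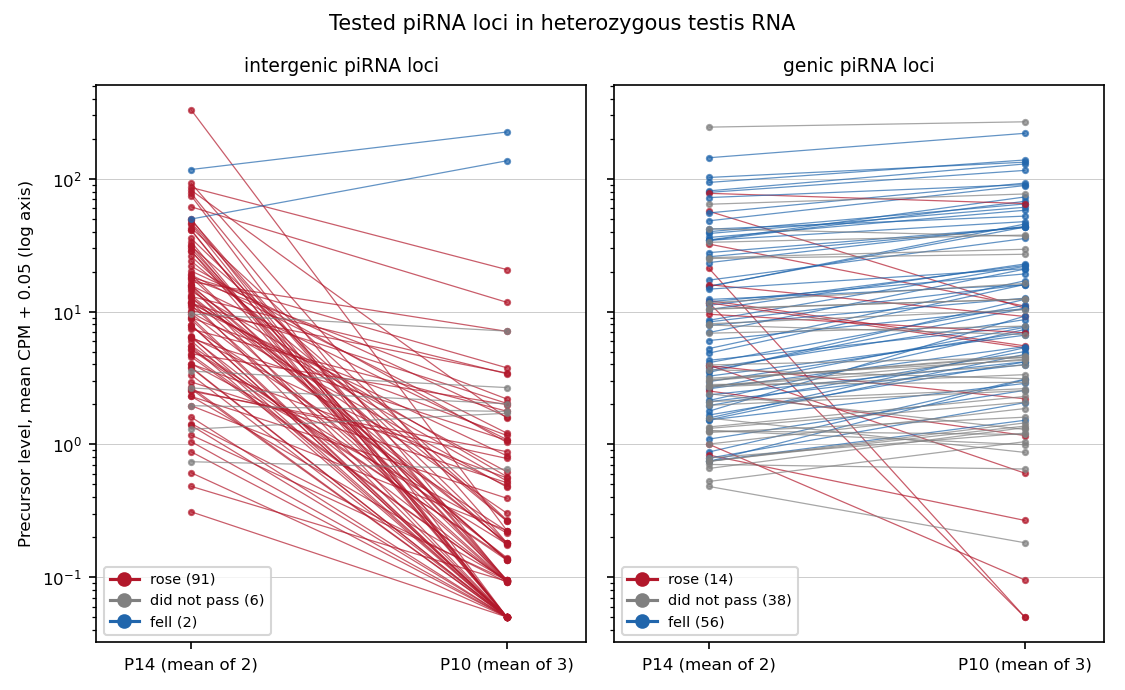
Mean testis RNA level of each tested intergenic (left) and genic (right) piRNA locus at P14 and P10 (CPM + 0.05, log axis), 1 line per locus, coloured by whether it rose, fell or did not pass. The axis is labelled as precursor level, though reads of genic loci cannot be told apart from those of their genes. The 91 rising intergenic loci slope down steeply towards P10, many to the bottom of the axis where no count was seen, and the 56 falling genic loci slope gently the other way.

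Small RNA of the same loci was read from separate libraries. The 2 P14 small RNA libraries stand apart from each other: intergenic loci took 22.0% and 75.5% of their counts, against 0.265% and 0.303% in the P10 libraries, and miRNA genes 32.5% and 9.02% at P14 against 38.6% and 36.0% at P10. All 91 intergenic loci with risen precursors had more small RNA in the second P14 library than in the first. In small RNA 17.3% of 10405 tested features rose and 9.91% fell. Of the 91 intergenic loci with risen precursors 90 rose in small RNA, with a median log2 fold change of 10.21 over the 91, and both loci with fallen precursors fell (median -1.10). Over all intergenic loci 94 rose in small RNA, 95 without the first and 89 without the second P14 library. The 2 falls were lost without the second P14 library or without either P10 library. At 17-qA3.3-26735 small RNA was 59210 and 215000 CPM at P14 against 40.9 and 56.1 CPM at P10 (11.46 ± 1.20, adjusted p = 4.50e-06). Of the 56 genic loci with fallen counts in testis RNA 34 fell and 2 rose in small RNA. Of the 14 with risen counts 7 rose and 1 fell. These genic counts depend on single libraries. Over all genic loci 44 fell and 15 rose in small RNA, but 25 fell and 8 rose without the second P14 library, and 20 and 8 or 27 and 9 without the first or second P10 library.

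Late pachytene and division genes rose in 15 of 24 tested, 11 by more than 2-fold, and fell in 5 (median 1.10), with 0 to 3 falls when a library was left out. Adam2, a sperm surface protein, had 68.7 and 59.6 CPM at P14 and no count at P10, at least 497-fold higher. Cdk1, the kinase of division, rose by 1.003. Ccna1, the cyclin needed to leave prophase, had 0.599 and 1.58 CPM at P14 against 1.08, 0.386 and 0.619 CPM at P10 and did not pass. Its phosphatase partner Cdc25c did not pass either (-0.02 ± 0.17, adjusted p = 0.947), and Cdc25b fell by 0.45, a call lost without the first P10 or the first P14 library (adjusted p = 0.0634 and 0.0595).

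Metabolic isozymes of testis rose in 14 of 19 tested, 10 by more than 2-fold, and 1 fell (median 2.20). Pdha2, a subunit of pyruvate dehydrogenase, had 109 and 85.7 CPM at P14 against 4.32, 5.67 and 6.56 CPM at P10 (4.13 ± 0.20, adjusted p = 6.69e-12). Pgk2, of glycolysis in sperm, rose to low levels, with 5.57 and 3.43 CPM at P14 against 3 counts in all at P10, a ratio of 34.9 (11.6 to 172). Gapdhs, the glyceraldehyde phosphate dehydrogenase of sperm, had 2.14 and 3.69 CPM at P14 against 1.49, 3.09 and 2.60 CPM at P10 and did not pass. Hk1 fell by 0.69.

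Gene pairs set a testis copy against its parent. Of 7 autosomal retrogenes of X-linked parents 6 rose, 4 of them past the test against a 2-fold change (median 2.12). Of the 7 parents 0 rose and 2 fell (median -0.12). Rpl10l had 95.5 and 81.7 CPM at P14 against 20.8, 21.1 and 19.3 CPM at P10 (2.12 ± 0.11, adjusted p = 1.14e-11), and the centrin gene Cetn1 rose by 6.17. Cstf2t and Rbmxl2 rose by 0.70 and 1.11, and Utp14b narrowly missed (0.30 ± 0.13, adjusted p = 0.0507), passing without the third P10 library (adjusted p = 0.0101). Of the parents, Pdha1, Pgk1, Cstf2, Cetn2 and Utp14a did not pass, and Rbmx fell by 0.74. Rpl10 fell (-1.26 ± 0.38, adjusted p = 0.00790), though not without the second P14 library (adjusted p = 0.101).

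Of 14 testis paralogues 12 rose, 9 of them past the test against a 2-fold change (median 1.996). Of their 14 counterparts 5 rose, none past that test, and 5 fell (median 0.12). The counterparts are widely expressed genes apart from Piwil2, a germ line gene itself and 1 of the 5 that rose (by 1.10). Meiotic cohesin subunits and their mitotic counterparts moved apart. Stag3 and Rad21l rose by 1.05 and 1.296, with Smc1b as above, and Stag2 and Rad21 fell by 0.44 and 0.34. Smc1a fell (-0.28 ± 0.09, adjusted p = 0.0122), but not without the third P10 or second P14 library (adjusted p = 0.0666 and 0.137). Mybl2, the MYB gene of dividing cells, fell by 0.68 while Mybl1 rose. Tbpl1 and Tbp, which encode TBP-like and TATA-binding proteins, both rose, by 1.18 and 0.92. Psma8, a proteasome subunit of spermatocytes, had 186 and 142 CPM at P14 against 11.8, 8.63 and 9.29 CPM at P10 (4.05 ± 0.22, adjusted p = 1.75e-11), and its counterpart Psma7 did not pass (0.12 ± 0.11, adjusted p = 0.380). Cyct and Cox6b2, of the respiratory chain, rose by 2.20 and 3.74. Cox6b1 rose by 0.32, a call lost without any 1 library but the first P10 library (adjusted p = 0.0812 to 0.131). Ldha rose by 0.80, and Hspa8, Cycs and Ccna2 did not pass. The levels of Gapdh (1.20 and 1.05 CPM at P14 against 3.78, 2.58 and 2.48 CPM at P10), Rpl10, Pgk1 and Cycs, at 0.703 to 4.37 CPM in all 5 libraries, are uncertain. These genes have near-identical copies, and how reads with several matches were counted is not given in the sources used here.

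**Figure D5:**
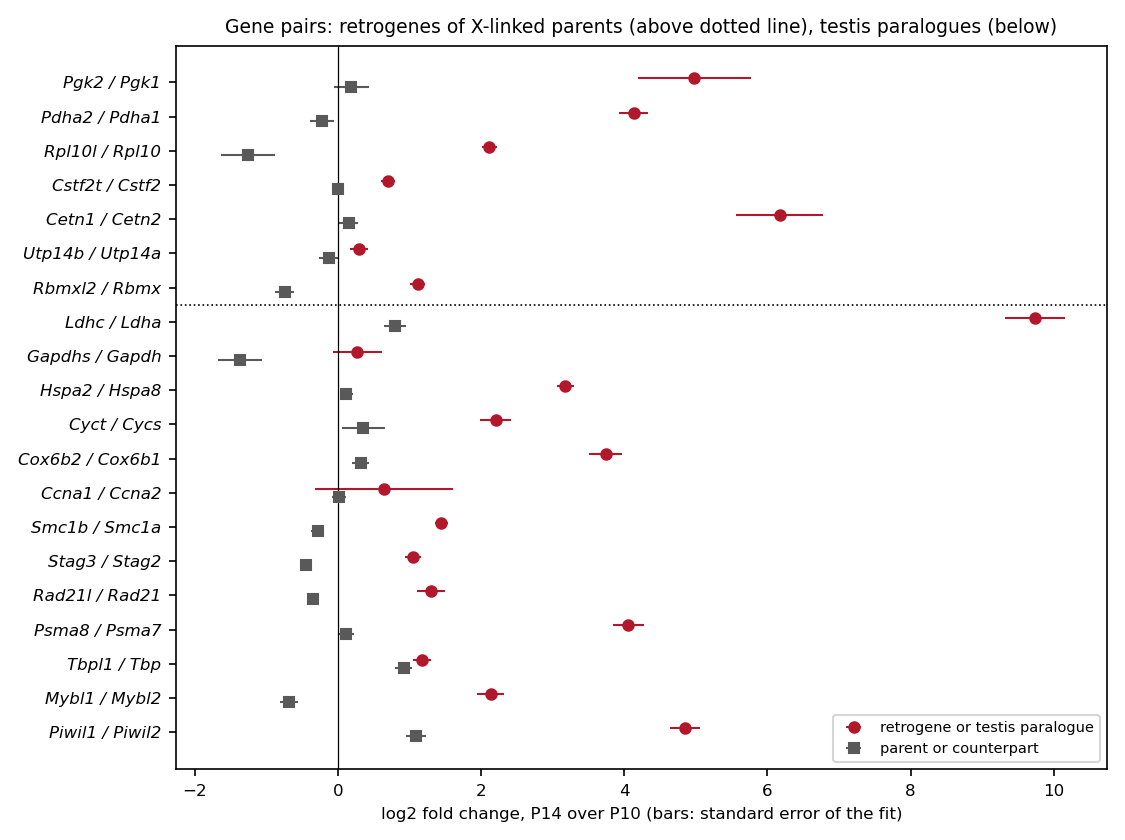
Log2 fold change, P14 over P10, of each testis copy (circle) and its parent or counterpart (square), with bars for the standard error of the fit. Retrogenes of X-linked parents stand above the dotted line and testis paralogues below it, and the circle lies to the right of its square in all 20 pairs shown, with overlapping bars in the pair of Ccna1 and Ccna2.

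Axoneme and cilium genes, which build the sperm tail, rose in 39 of 47 tested, 25 of them by more than 2-fold, and 2 fell (median 2.37). The falls came to 1 when any library but the second P10 library was left out. Besides Rsph1, Zmynd10, a dynein arm assembly factor, had 70.7 and 47.4 CPM at P14 against 0.135, 0.258 and 0.371 CPM at P10 (7.76 ± 0.42, adjusted p = 2.04e-11). Spag6 of the central pair had 37.7 and 30.1 CPM at P14 against 0.135, 0.515 and 0 CPM at P10 (7.21 ± 0.49, adjusted p = 4.49e-10). Cfap65, listed as Ccdc108, and the tektin gene Tekt1 rose by 6.40 and 5.34, and the dynein light chain gene Dnali1 by 3.98. Dnah5, a dynein heavy chain best known from airway cilia, fell, with 0.428 and 0.615 CPM at P14 against 2.03, 1.16 and 1.86 CPM at P10 (-1.66 ± 0.44, adjusted p = 0.00302). Foxj1, the master factor of motile cilia, had 3.68 and 2.81 CPM at P14 against 4.73, 7.34 and 2.97 CPM at P10 and did not pass.

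The X-box, the motif bound by RFX factors, was searched on both strands as the letters GTTGCC, any 2 bases, and GGNAAC. It was found in 11 of 602 promoters of genes that rose by more than 2-fold (1.83%), in 19 of 3036 promoters of all genes that rose (0.626%), in 31 of all 10252 (0.302%) and in 0 of 2394 promoters of genes that fell, 232 of them by more than 2-fold. The 11 genes are named because their promoters held it. They include Ttc26 and Ttc30a2 of intraflagellar transport, Bbs7 of the ciliary BBSome, Pih1d3, a dynein arm assembly factor, and Agbl3, an enzyme that trims tubulin tails. Each site is shown in capitals with up to 10 bases on either side, on the strand of its gene, so that the shared letters can be compared. The site of Pih1d3 and that of 4931428L18Rik are the same bases read on opposite strands between these neighbours.
Ttc26 (chr6:38381481-38381514, plus strand): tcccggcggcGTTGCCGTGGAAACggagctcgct
Ttc30a2 (chr2:75978180-75978213, minus strand): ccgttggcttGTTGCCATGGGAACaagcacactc
Bbs7 (chr3:36613487-36613520, minus strand): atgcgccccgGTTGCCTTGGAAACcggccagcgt
Agbl3 (chr6:34780401-34780431, plus strand): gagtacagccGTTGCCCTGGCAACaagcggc
Pih1d3 (chr1:31222770-31222803, plus strand): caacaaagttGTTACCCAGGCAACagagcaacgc
4931428L18Rik (chr1:31222770-31222803, minus strand): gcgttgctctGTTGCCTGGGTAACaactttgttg
Ccdc175 (chr12:72185030-72185053, minus strand): cagcgtcgtcGTTGCCCTGGCAAC
March10 (chr11:105456842-105456875, minus strand): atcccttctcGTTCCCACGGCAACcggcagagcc
1700010I14Rik (chr17:8988298-8988331, plus strand): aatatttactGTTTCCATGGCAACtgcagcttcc
1700029J07Rik (chr8:45975254-45975287, minus strand): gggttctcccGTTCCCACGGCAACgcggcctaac
1700034J05Rik (chr6:146954430-146954463, minus strand): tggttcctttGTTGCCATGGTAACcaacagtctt
Ttc26 averaged 60.03 CPM at P14 against 6.43 CPM at P10 (3.22 ± 0.17, adjusted p = 1.94e-11), Ttc30a2 9.35 CPM at P14 against 0.0429 CPM at P10, March10 18.7 CPM at P14 against 0.298 CPM at P10, and Bbs7 36.3 CPM at P14 against 14.1 CPM at P10. A match of letters is a description and not a binding site.

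Acrosome and round spermatid genes rose in 14 of 33 tested, 13 by more than 2-fold, and 1 fell (median 1.68). Tex101, a germ cell surface protein, had 805 and 754 CPM at P14 against 108, 72.9 and 90.1 CPM at P10 (3.11 ± 0.17, adjusted p = 2.50e-11), and Dkkl1 of the acrosome rose by 5.46. Acr, which encodes proacrosin, had 12.5 and 8.08 CPM at P14 against 1 count in all at P10, a ratio of 240 (42.6 to 9514). Spaca1 rose by 2.34. Acrv1, Izumo1 and Tssk1, which belong to round spermatids, were at or below 1.28 CPM in all 5 libraries and did not pass. The fall, in Hspa1l, held in the full fit (-0.67 ± 0.26, adjusted p = 0.0320), but not without any 1 of the P10 libraries or the first P14 library (0.0654 to 0.248). Elongating spermatid genes rose in 4 of 22 tested (18.2%), below the 28.6% of all tested features, and fell in none (median 0). Among the rises were Odf2, which also has a role at centrosomes (1.06 ± 0.13, adjusted p = 7.38e-07), and the low-level genes Oaz3 and Spata18.

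Of 11 tested genes of histone variants 4 rose (36.4%) and 2 fell (18.2%), against 28.6% and 25.4% of all tested features. The testis H2B gene Hist1h2ba had 1.20 and 1.14 CPM at P14 against 2 counts in all at P10, a ratio of 13.6 (3.42 to 118), and the linker histone gene Hist1h1t was at or below 0.514 CPM in all 5 libraries. H1foo, the linker histone of oocytes, had 0.0856 and 0 CPM at P14 against 4.32, 6.69 and 5.57 CPM at P10 (-6.59 ± 0.92, adjusted p = 6.17e-06). DNA methylation genes fell in 5 of 11 tested (45.5%) and rose in 3 (27.3%), with a median of -0.47 and 1 rise without the second P14 library. The maintenance enzyme gene Dnmt1 fell by 0.60, the de novo enzyme gene Dnmt3b by 0.69 and Tet2 by 0.95. Dnmt3a is listed at 0 in every library, but the genic piRNA locus named after it has counts. pi-Dnmt3a had 4.37 and 6.06 CPM at P14 against 14.73, 18.15 and 18.08 CPM at P10 (-1.70 ± 0.21, adjusted p = 9.79e-07). Reads of the gene and of the locus cannot be told apart.

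Genes of immature Sertoli cells fell in 17 of 23 tested, 6 by more than 2-fold, and 2 rose (median -0.69). Amh, the hormone of immature Sertoli cells, had 77.2 and 84.2 CPM at P14 against 376, 583 and 371 CPM at P10 (-2.46 ± 0.17, adjusted p = 4.87e-10). Its activators fell too: Sox9 had 119 and 126 CPM at P14 against 290.0, 332 and 261 CPM at P10 (-1.26 ± 0.11, adjusted p = 1.15e-08), and Gata4 fell by 1.32. Inhbb, the inhibin B subunit gene, fell by 0.99. The keratin gene Krt18 fell by 4.24, with 0.171 and 0 CPM at P14 against 1.35, 3.35 and 0.990 CPM at P10. Summed over the list the libraries held 3868 and 4137 CPM at P14 against 5807, 6923 and 5862 CPM at P10, without overlap. The second P10 library has the highest sum, and without it 16 genes fell and 1 rose.

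Genes of mature Sertoli cells and of the blood-testis barrier, the junctions that seal off meiotic cells, were divided (median -0.08). Of 25 tested 5 rose (20%) and 9 fell (36%), against 28.6% and 25.4% of all tested features. With no filter on low counts 8 rose. Tsx had 45.3 and 44.1 CPM at P14 against 1.08, 0.772 and 3.22 CPM at P10 (4.69 ± 0.32, adjusted p = 4.71e-10), and Defb19, a defensin of Sertoli cells, rose by 1.58. The barrier claudin gene Cldn11 had 518 and 538 CPM at P14 against 547, 497 and 566 CPM at P10 and did not pass (-0.02 ± 0.10, adjusted p = 0.871). The junction genes Tjp1 and Gja1 fell by 0.36 and 0.72. Rhox5, an androgen target on the X chromosome, did not pass (0.85 ± 0.37, adjusted p = 0.0573). It passed in the compared libraries alone (adjusted p = 0.00194) and with no filter on low counts (adjusted p = 0.0128).

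Leydig cell genes fell in 5 of 17 tested, against 25.4% of all tested features, and rose in 2 (median -0.27), with 8 fallen in the compared libraries alone, and their sum was 1014 and 926 CPM at P14 against 1205, 1409 and 1293 CPM at P10. Hsd3b6, a steroid enzyme of adult Leydig cells, had 47.1 and 49.8 CPM at P14 against 1.49, 0.386 and 4.33 CPM at P10 (4.52 ± 0.50, adjusted p = 2.45e-07). Hsd17b3, the last enzyme of testosterone synthesis, had 9.33 and 8.43 CPM at P14 against 24.1, 40.0 and 23.6 CPM at P10 (-1.72 ± 0.26, adjusted p = 1.45e-05). Star, which moves cholesterol into mitochondria, had 33.5 and 29.2 CPM at P14 against 47.3, 119 and 40.2 CPM at P10 and did not pass (-1.13 ± 0.51, adjusted p = 0.0687). It passed without the first or the third P10 library (adjusted p = 0.0477 and 0.0323). Cyp11a1, Cyp17a1, Hsd3b1 and Insl3 did not pass, though Cyp17a1 did as a fall in the compared libraries alone (-0.88, adjusted p = 0.0174).

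Of 13 tested peritubular genes 5 rose (38.5%) and 4 fell (30.8%), against 28.6% and 25.4% of all tested features. The contractile genes Acta2, Cnn1 and Tagln rose by 0.49, 0.74 and 0.63, while Myh11 fell by 0.32 (adjusted p = 0.00330), a fall not called without the first P14 library (adjusted p = 0.0539). The Hedgehog receptor and target gene Ptch1 fell by 0.87. Endothelial genes fell in 5 of 11 tested and rose in none, with Kdr, the VEGF receptor, at 15.7 and 12.1 CPM at P14 against 39.3, 74.3 and 46.8 CPM at P10 (-1.94 ± 0.22, adjusted p = 2.86e-07). Cdh5 fell by 0.86 and Pecam1 did not pass (-0.31 ± 0.22, adjusted p = 0.245). Of 16 tested macrophage and leukocyte genes 2 rose (12.5%), below the share of all tested features, and none fell. C1qb rose by 0.97 and Cd68 by 0.95, the rise of Cd68 not without the first P14 library (adjusted p = 0.0703). With a single library left out the number of rises ran from 1 to 5.

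Markers of tissue around the testis were few. Of 8 tested epididymis and duct genes 4 fell and 1 rose, and their summed level was 126 and 130 CPM at P14 against 108, 149 and 103 CPM at P10. None rose without the second P14 library and 2 rose with DESeq2. The defining genes Lcn8, Crisp1 and Rnase10 were at or below 0.176 CPM in all 5 libraries, whereas Pax8 of the ducts had 0.856 and 1.05 CPM at P14 against 4.05, 20.98 and 6.56 CPM at P10 (-3.45 ± 0.71, adjusted p = 3.62e-04), again highest in the second P10 library. Of 11 tested adipocyte genes 2 fell (18.2%) and 1 rose (9.09%), below the 25.4% and 28.6% of all tested features. Their summed levels were 69.69 and 70.02 CPM at P14 against 132, 141 and 136 CPM at P10. The falls were 1 without the first P10 library or either P14 library, and the rise was lost without the second P14 library. Most of that difference was in Lpl, which other cells express too, at 21.58 and 19.15 CPM at P14 against 64.0, 94.4 and 70.3 CPM at P10, and Adipoq was at or below 1.11 CPM. Their part in the falls above was not tested.

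Immediate early genes, which respond within minutes to stress and signals, fell in 10 of 17 tested and rose in 1 (median -0.62), with 7 falls without the second P10 library. Besides Jun, its relative Jund had 113 and 116 CPM at P14 against 318, 433 and 288 CPM at P10 (-1.60 ± 0.14, adjusted p = 1.27e-08), and Egr2, Atf3 and Egr1 fell by 1.69, 1.33 and 0.74. Fos and Junb did not pass. The rise, in Zfp36 (0.45 ± 0.17, adjusted p = 0.0330), was lost without any 1 library but the second P10 library (0.0840 to 0.128).

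The step between ages was then compared between genotypes. Btbd18, the targeted gene, averaged 2.08 ± 0.026 CPM in knockouts (SD, n = 2) against 18.3 ± 0.16 CPM in heterozygotes (SD, n = 2) at P14, and 2.21 ± 0.37 CPM in knockouts (SD, n = 3) against 13.8 ± 0.87 CPM in heterozygotes (SD, n = 3) at P10. The difference, knockout step minus heterozygous step, passed for 7 of 16334 features: the knockout step was higher in 5 (0.0306%) and lower in 2 (0.0122%). Ephb1, an ephrin receptor gene, averaged 30.0 ± 2.9 CPM at P14 against 8.20 ± 0.61 CPM at P10 in knockouts (SD, n = 2 and n = 3) and had 9.08 and 11.9 CPM at P14 against 10.0, 10.2 and 10.7 CPM at P10 in heterozygotes, a difference between steps of 1.85 ± 0.24 (adjusted p = 0.00432). The intergenic loci 9-qC-10667 and 6-qD1-2831 gave -2.33 ± 0.36 and -1.72 ± 0.27 (adjusted p = 0.0156 each): both rose in heterozygotes, by 2.27 and 1.57, and their knockout steps were -0.06 and -0.14. Jun fell in both genotypes, by 1.06 in knockouts and by 1.76 in heterozygotes (difference 0.70 ± 0.12, adjusted p = 0.0302). Taf4b, Filip1 and Palld gave differences of 0.65, 1.395 and 1.07 (adjusted p = 0.0302 each). The next in order did not pass: Crtc1 at 0.60 (adjusted p = 0.0540), Cep290 at -0.64 and E230008N13Rik at -1.57 (adjusted p = 0.180 each), 5-qF-4633 at -3.19 (adjusted p = 0.196) and Rpl29 at -0.96 (adjusted p = 0.199).

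These calls were few and rested on single libraries: without the second knockout or the first heterozygous P14 library 0 passed in either direction, and without the first knockout P14 library 13 were higher and 10 lower. The median of the difference was below 0 in several lists that rose in heterozygotes. It was -1.81 over tested intergenic loci, -0.74 over axoneme genes and -0.48 over synaptonemal complex genes, against -0.02 over all tested features. In lists that mostly fell it was above 0. It was 0.32 over undifferentiated spermatogonia, 0.28 over immature Sertoli cells, 0.48 over immediate early genes and 0.02 over genic loci. These medians were not tested. For 17-qA3.3-26735 the difference was -6.54 ± 1.93 and did not pass (adjusted p = 0.280), with 3.44 ± 2.6 CPM in knockouts at P14 (SD, n = 2). Rsph1 and Piwil1 rose in both genotypes, by 4.59 and 3.54 in knockouts and by 5.40 and 4.85 in heterozygotes, and the differences did not pass (adjusted p = 0.317 and 0.226).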

How the data were processed

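Whole-testis RNA was read from a deposited table of counts per gene and piRNA locus, which the authors made with TopHat2 2.1 alignment to mm10 and featureCounts from Subread 1.4.6-p3, after cutadapt 1.8.1, per the submitters' processing notes; strand and multi-match settings are not given in the sources used here. Small RNA came from a second deposited table of counts. The values are raw counts.

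Counts were modelled with edgeR 4.0.16 (quasi-likelihood, TMM scaling, default low-count filter) in R 4.3.3, using all 20 testis libraries and 1 mean per age and genotype, or 14 small RNA libraries. Calls have a Benjamini-Hochberg adjusted p below 0.05 over all tested features. A second test, edgeR's glmTreat, was run against a 2-fold change, with the same threshold. The standard error is the log2 fold change over the square root of F. The genotype difference is a contrast of both steps in the same fit. Genes with no P10 count use a floor of 3 counts over the group, and those with 1 to 3 counts a 95% interval, which covers counting error only. The script was tested on simulated data.

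Named genes are the 10 clearest by the 2-fold test in each direction, key and most significant members of each list with 1 against its direction, all pairs, and leading loci; genes with an X-box, and others named for their list, were added after values were seen. The members and lists were chosen with earlier results of these data known. Of 590 listed names 578 were found. RefSeq names matched 98.5% of features. Alternatives were other scalings and filters, DESeq2 1.42.0, a replicate block, the compared libraries alone, a stricter threshold, and leaving out each library. Replicate numbers were not treated as pairs. A few genes that the naming rule selects are not reported here.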

Additional observations from a re-analysis of the deposited data

Results flagged for a closer look

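In 7 features the step from P10 to P14 differed between knockout and heterozygous testes by the test of the difference itself, edgeR's contrast of both steps. The difference, knockout minus heterozygous step in log2 units, was 1.85 for Ephb1, 1.395 for Filip1, 1.07 for Palld, 0.70 for Jun and 0.65 for Taf4b, and it was -2.33 for 9-qC-10667 and -1.72 for 6-qD1-2831. Ephb1 kept its call except without the second knockout P14 library (adjusted p = 0.0532) and without the first heterozygous P14 library (adjusted p = 0.0739). The locus 9-qC-10667 lost its call without the first or the third knockout P10 library, the first heterozygous P14 library or the second knockout P14 library (adjusted p from 0.0627 to 0.107). It had 3.75 ± 0.28 CPM in knockouts (SD, n = 2) against 20.7 and 15.4 CPM in heterozygotes at P14, and 3.93 ± 1.1 CPM in knockouts (SD, n = 3) against 2.43, 4.76 and 3.96 CPM in heterozygotes at P10. The locus 6-qD1-2831 lost its call without the first or second heterozygous P10 library, any of the 3 knockout P10 libraries, the first heterozygous P14 library or the second knockout P14 library (adjusted p from 0.0521 to 0.107). It had 3.18 ± 0.31 CPM in knockouts (SD, n = 2) against 11.1 and 9.14 CPM in heterozygotes at P14, and 3.53 ± 0.50 CPM in knockouts (SD, n = 3) against 3.38, 2.96 and 3.84 CPM in heterozygotes at P10. Filip1 averaged 11.8 ± 1.3 CPM in knockouts (SD, n = 2) against 4.11 and 4.83 CPM in heterozygotes at P14. Palld fell in both genotypes, by 0.50 in knockouts and by 1.56 in heterozygotes. Taf4b rose by 0.45 in knockouts, while its heterozygous fall of 0.20 was lost without any 1 of the compared libraries but the second P10 library. The difference in Taf4b itself was lost without any 1 library but the second heterozygous P10 library (adjusted p from 0.0553 to 0.178). Filip1 lost its call without any 1 library but the first knockout P14 library, as did Jun, and Palld kept its call only without the third heterozygous P10 library.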

How the results depend on the processing

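The counts over all features kept within 1.5 times of their values under every alternative run, with 3842 to 4913 features risen and 3203 to 4439 fallen by adjusted p below 0.05 and 3818 risen and 3151 fallen by adjusted p below 0.01, apart from the falls of more than 2-fold, which ran from 274 to 399 with 1 library left out, against 429. No feature called in 1 direction was called in the other under any alternative. For the difference between genotypes, 5 higher and 2 lower steps became 11 and 22 with no filter on low counts, 28 and 55 with DESeq2, and 1 and 0 with the compared libraries alone. With 1 library left out they ran from 0 to 13 higher and from 0 to 10 lower. In small RNA the 2 fallen intergenic loci became 0 with total counts, with no filter and with the compared libraries alone, and ran from 0 to 2 with 1 library left out. The 15 risen and 44 fallen genic loci became 8 and 25 with total counts, and 6 and 2 with the compared libraries alone. With 1 small RNA library left out they ran from 8 to 19 risen and from 20 to 52 fallen. The causes were not tested. With the replicate number as a block 4547 features rose and 3987 fell. Deviations of same-numbered libraries correlated at -0.0455 and -0.0411 (Pearson's r). The 2 P14 libraries deviate from their mean by mirror values, so these correlations cannot show whether same-numbered libraries share anything beyond the number. Under that block Palld's difference between genotypes had an adjusted p of 0.0667. Low counts limit folds at loci that had few or no counts at P10, and intervals there cover counting error only.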
